A study of Homo sapiens with 4 samples.

Results

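The genes described here build and regulate the actin cytoskeleton: actins, tropomyosins, non-muscle myosin, filament crosslinkers, monomer binders, the Arp2/3 complex and the transcription factors that control many of them. They were taken by symbol from a list of 58 names. As MKL1 and MRTFA name the same gene, the list held 57 genes, and all 57 were found among the 39634 genes of the count table. Polyadenylated RNA was sequenced from BEAS-2B, an established line of human bronchial epithelial cells, kept in N2B27 medium in both groups. In 2 libraries, named control here, the cells carried a control shRNA (short hairpin RNA), and in the other 2 they carried an shRNA against Fer, a cytoplasmic tyrosine kinase. Neither the number of hairpins nor whether the cells were a pool or a clone is stated in the labels. The series asked how depletion of Fer alters gene expression in these cells.

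Actin monomers assemble into filaments that give a cell its shape, its cortex and its pulling force. Profilin and the beta-thymosins hold the monomer pool, the Arp2/3 complex starts branches, cofilin severs filaments, tropomyosins coat them, and crosslinkers and myosin II turn them into bundles under tension. The pool of free actin also feeds back on transcription: MRTFA binds actin monomers, and once released it enters the nucleus and acts with serum response factor (SRF) on promoters that carry a CArG box, among them those of several actin and actin-binding genes.

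The mRNA of FER, the targeted gene, did not differ between the groups beyond its spread. FER (ENSG00000151422, chromosome 5) had 334 and 459 counts in control and 404 and 535 counts in the other libraries, which is 16.3 and 21.2 against 17.8 and 20.1 CPM (counts scaled to the effective size of each library). Its log2 fold change was 0.02 ± 0.17 (SE; 95% interval -0.37 to 0.40; edgeR adjusted p = 0.976). The mRNA values thus do not show the knockdown that the label names, and these RNA libraries do not measure the protein. The second group is therefore called the libraries labelled Fer knockdown, and fold changes are those libraries over control.

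The libraries held 21422976 to 25169713 counts and 20284 to 20944 detected genes. Genes of the mitochondrial chromosome took 16.9% and 19.4% of the counts in control and 9.62% and 9.37% in those labelled Fer knockdown. Of 7 epithelial markers, the keratins KRT8 (1602 to 2094 CPM) and KRT18 (745 to 965 CPM) were abundant, with overlapping groups. KRT7 was lower without overlap, at 309 and 248 CPM in control and 211 and 212 CPM in the others. CDH1 (7.53 and 7.33 against 9.78 and 10.5 CPM) and EPCAM (2.74 and 3.41 against 3.48 and 4.97 CPM) were low and higher without overlap, while KRT19 (5.63 to 7.71 CPM) and KRT5 (0.147 to 0.528 CPM) were low. Of the 6 tested, 0 were called by edgeR, DESeq2 or limma-voom, with 1 lower and 1 higher at an unadjusted p under 0.05 in edgeR. The summed level of the list was 3385 and 2659 CPM in control and 2861 and 2828 CPM in the others. Of 6 blood cell markers, CD3E and HBB were at 0 and the summed level of the list was at most 0.876 CPM. The 7 fibroblast markers summed to 106 and 117 CPM in control and 92.6 and 89.9 CPM in the other libraries, with DCN and LUM at 0 and most of the sum from COL1A1 (76.9 and 81.2 against 56.7 and 58.0 CPM). Of the 3 fibroblast markers tested, edgeR and limma-voom called 0 and DESeq2 called 1 lower, while 1 was lower (COL1A1) and 1 higher (COL3A1) at an unadjusted p under 0.05 in edgeR. The part of these markers' cells in the results below was not tested. Fewer cells of a type and less RNA per cell cannot be told apart in such bulk libraries.

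Of the 57 cytoskeletal genes, 3 fell and 0 rose. The 3 were SH3BGRL3, TPM4 and PFN1. SH3BGRL3 is in the list but was placed in none of the actin role groups used below. All 57 genes passed the filter on low counts and were tested among 15336 genes, of which 0.646% were called in either direction, 0.365% lower and 0.28% higher. The share called among the cytoskeletal genes was 5.26%. In the same edgeR test 15 of the 57 genes were lower and 1 was higher at an unadjusted p under 0.05, a level that 8.77% of all tested genes passed lower and 8.95% higher (17.7% together). DESeq2 called 9 lower and 0 higher, with 3.78% of all tested genes called, and limma-voom called 3 lower and 0 higher, with 1.16% of all called. The genes were listed with earlier results of these data known, so these shares are a description.

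Beyond the calls, the 57 genes lay lower more often than higher. Their log2 fold changes ran from -0.94 to 0.40 with a median of -0.08, against 0.01 over all tested genes. Of the 57 genes, 37 were below 0 and 20 above, so that 64.9% were below 0 against 48.1% of all tested genes. In 24 of them (42.1%) both libraries labelled Fer knockdown lay below both controls, which held for 23.4% of all tested genes. In 7 both lay above, which held for 25.8% of all tested genes, and in the remaining 26 the groups overlapped. With library totals alone in place of TMM scaling, the median of all tested genes moved to 0.18 and that of the cytoskeletal genes to 0.09, and 24 rather than 37 of them lay below 0. Relative to the median of all tested genes, 37 of the 57 were lower under either scaling.

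**Figure D1:**
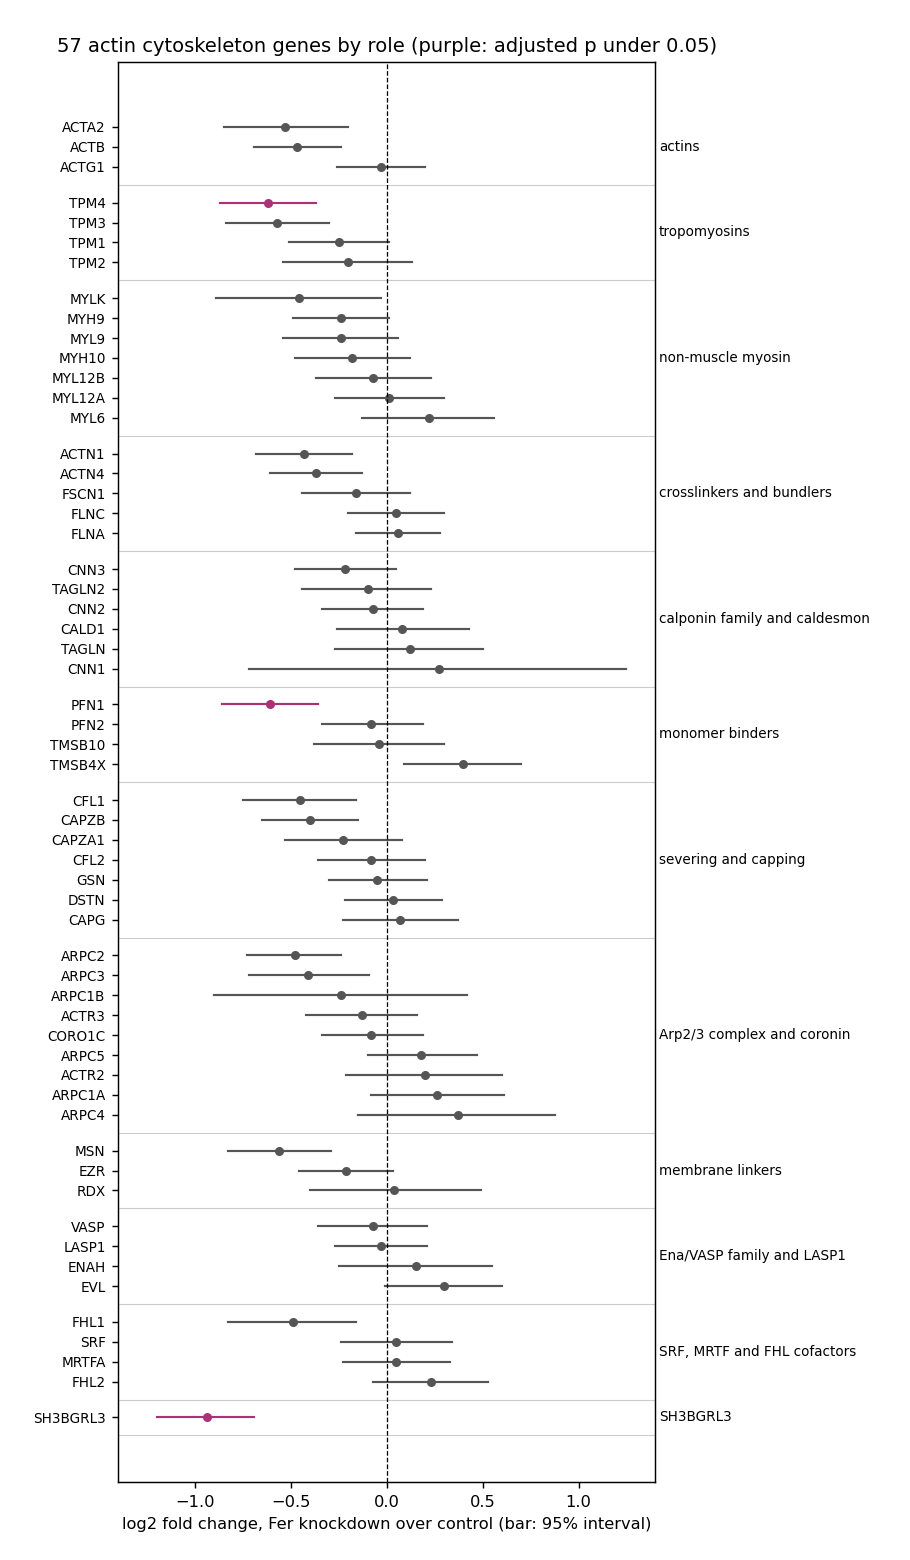
Log2 fold change of each of the 57 genes (horizontal axis, libraries labelled Fer knockdown over control) with its 95% interval, grouped by role. The 3 genes past the threshold, SH3BGRL3, PFN1 and TPM4, are in purple and all lie to the left of 0.

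The largest difference among the 57 genes was that of SH3BGRL3 (chromosome 1), a small cytoplasmic protein with a thioredoxin-like fold. Its level was 431 and 409 CPM in control, against 222 and 215 CPM in those labelled Fer knockdown, a mean of 420 ± 15.6 against 218 ± 4.96 CPM (SD, n = 2 each). Both controls were far above both other libraries. The gene fell by 0.94 ± 0.11 on the log2 scale (SE), which is 48.0% less (edgeR adjusted p = 0.0118). Exons of UBXN11 overlap 10.9% of its exonic bases, and without a known strand setting the reads of such a pair cannot be separated.

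PFN1 (chromosome 17) encodes profilin 1, which binds actin monomers and hands them to growing filament ends. Its level was 1090 and 1033 CPM in control and 672 and 720 CPM in those labelled Fer knockdown. The groups did not overlap, and the log2 fold change was -0.61 ± 0.11 (SE), or 34.4% less (edgeR adjusted p = 0.0461). The table also lists 10 pseudogenes of PFN1, whose summed counts reached at most 4.08% of those of PFN1 in a library, and exons of ENO3 overlap 5.59% of its exonic bases. The second profilin, PFN2, was at 174 and 174 CPM in control and at 159 and 171 CPM in the other libraries.

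TPM4 (chromosome 19) encodes tropomyosin 4, which coats stress fibre filaments. It stood at 622 and 672 CPM in control and at 416 and 427 CPM in those labelled Fer knockdown. Both controls were above both other libraries. The log2 fold change was -0.62 ± 0.11 (SE), or 34.8% less (edgeR adjusted p = 0.0461), with 9.60% of its exonic bases under exons of another gene.

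These 3 genes were lower under each of the 15 alternatives run, but none kept its call under all of them. With the mitochondrial chromosome left out, the log2 fold changes were -0.95 for SH3BGRL3, -0.62 for PFN1 and -0.63 for TPM4, as large as with it. PFN1 and TPM4 then missed the threshold (edgeR adjusted p = 0.0521 and 0.0515), as they did with library totals alone, at -0.44 and -0.45 (adjusted p = 0.0542 and 0.0549). Without replicate 1 or replicate 2 of the libraries labelled Fer knockdown, 0 of the 57 genes were called, with adjusted p of 0.0561 and 0.125 for SH3BGRL3, 0.609 and 0.516 for PFN1, and 0.568 and 0.617 for TPM4. Without control replicate 1 or control replicate 2, 31 and 29 of the 57 genes were called, while 29.5% and 20.6% of all tested genes were called.

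**Figure D2:**
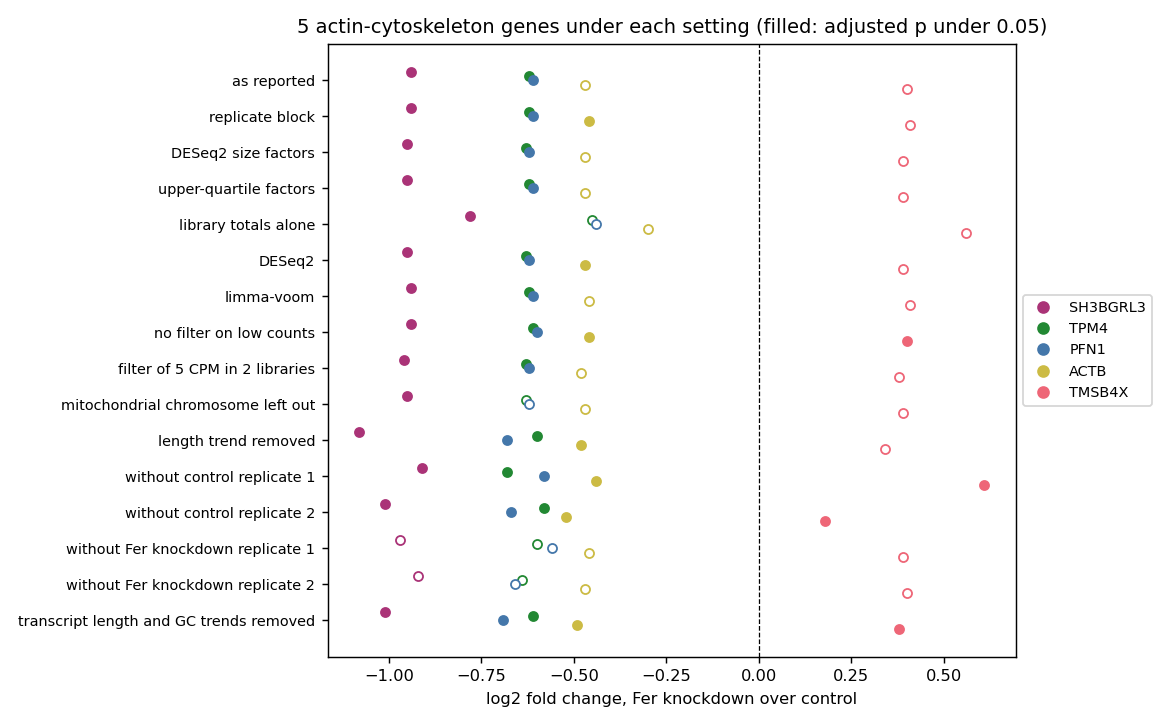
Log2 fold change (horizontal axis) of SH3BGRL3, TPM4, PFN1, ACTB and TMSB4X under each processing setting (rows), with filled circles where the adjusted p was under 0.05. SH3BGRL3, TPM4, PFN1 and ACTB lie to the left of 0 and TMSB4X to the right in every row, while the number of filled circles differs between rows.

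The promoters show where SRF could bind by sequence. The CArG box, which is its own reverse complement and so reads alike on both strands, was searched in the 250 bases before each RefSeq start site of build GRCh38.p14. It was found for 9 of the 51 cytoskeletal genes with such a window (17.6%), against 394 of 27305 genes in all (1.44%). By window, 11 of 103 held it (10.7%), against 407 of 35116 in all (1.16%). A gene with more windows has more places for a match. The list includes SRF itself and genes of kinds known to carry the box, so these shares are only a description. The genes with a box were ACTG1, ACTN1, CNN2, FHL1, FHL2, FLNA, MYLK, SRF and TPM4. Another 6 genes of the list had no window and were not searched, so a gene not named here lacked either a match or a window. FHL1 has 12 windows, ACTN1 and FHL2 have 4 each and SRF has 2, and not all of these hold a box. The stretches below, from RefSeq, 5′ to 3′ on the strand of the gene, are shown because they let the boxes of a called gene (TPM4) and of uncalled genes be compared. Capitals mark the CArG box, and stretches that lie in annotated exons of the gene are kept to 30 bases.
TPM4, chr19:16067335-16067404, plus strand, upstream of 1 of its 3 starts: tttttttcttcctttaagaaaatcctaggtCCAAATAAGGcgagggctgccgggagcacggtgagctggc
ACTN1, chr14:68977698-68977767, minus strand: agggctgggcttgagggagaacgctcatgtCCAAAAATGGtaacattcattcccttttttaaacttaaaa
CNN2, chr19:1026489-1026558, plus strand: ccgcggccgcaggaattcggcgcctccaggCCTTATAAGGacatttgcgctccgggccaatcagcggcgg
FLNA, chrX:154374689-154374758, minus strand: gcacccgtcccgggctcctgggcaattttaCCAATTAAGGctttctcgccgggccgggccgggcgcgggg
FHL2, chr2:105438575-105438644, minus strand, 1 of its 2 boxes: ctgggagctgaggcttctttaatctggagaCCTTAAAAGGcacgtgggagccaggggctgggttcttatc
SRF, chr6:43171209-43171268, plus strand: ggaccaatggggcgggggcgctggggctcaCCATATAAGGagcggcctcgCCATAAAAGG
ACTG1, chr17:81512874-81512903, minus strand: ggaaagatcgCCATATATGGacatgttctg
MYLK, chr3:123620623-123620652, minus strand: ataaaccatcCCTTTTATGGgagttgaagc
FHL1, chrX:136196911-136196940, plus strand: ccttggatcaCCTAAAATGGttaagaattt

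The median log2 fold change was -0.07 over the 9 genes with a CArG box and -0.08 over the 42 without. The genes with a box ranged from -0.62 (TPM4) to 0.23 (FHL2), and the difference between the 2 sets was not tested. TPM4 was the 1 gene of the 9 past the threshold. The windows of PFN1 and SH3BGRL3 held no match, which says only that these letters are not in those windows. SRF carried 2 boxes in a single window, and its own mRNA is given with the other transcription factors.

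Among the actins, the cytoplasmic beta-actin mRNA was lower in both libraries labelled Fer knockdown while the gamma-actin mRNA was nearly level. ACTB, which encodes beta-actin, was at 4997 and 4803 CPM in control and at 3539 and 3560 CPM in the other libraries. The groups did not overlap, but at a log2 fold change of -0.47 ± 0.10 (SE) the gene missed the threshold (edgeR adjusted p = 0.0659). It was called by DESeq2 (adjusted p = 0.0140) but not by limma-voom (adjusted p = 0.0685). ACTG1, which encodes gamma-actin and carries a CArG box, was at 3927 and 3657 CPM in control and at 3809 and 3632 CPM in the other libraries, so that the groups overlapped. Its log2 fold change was -0.03, with a 95% interval of -0.26 to 0.20 (edgeR adjusted p = 0.926), and 0.14 with library totals alone. ACTA2, the smooth muscle alpha-actin, was at 96.8 and 78.8 CPM in control and at 64.5 and 57.5 CPM in the others, a log2 fold change of -0.53 (edgeR adjusted p = 0.116). DESeq2 called ACTA2 too (adjusted p = 0.0393), as did edgeR with the replicate number as a block (adjusted p = 0.0229). By limma-voom it was not called (adjusted p = 0.102). The block called 6.46% of all tested genes, and the labels do not say that a number marks a shared culture. Exons of FAS and ACTA2-AS1 overlap 30.1% of the bases of ACTA2.

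A ratio within a library does not depend on how libraries are scaled. There were 1.27 and 1.31 counts of ACTB per count of ACTG1 in control and 0.929 and 0.980 in those labelled Fer knockdown. Of all actin counts, ACTB took 55.4% and 56.2% in control and 47.7% and 49.1% in the others, and ACTG1 43.5% and 42.8% against 51.4% and 50.1%. The more abundant actin mRNA by counts was thus ACTB in both controls and ACTG1 in both other libraries. The 95% Wilson intervals of these shares, which cover counting error only, were at most a fraction of a percentage point wide. With 2 libraries against 2, the smallest p that an exact two-sided permutation test can give is 0.333, so such ratios, picked after their values were seen, are given without a test.

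**Figure D3:**
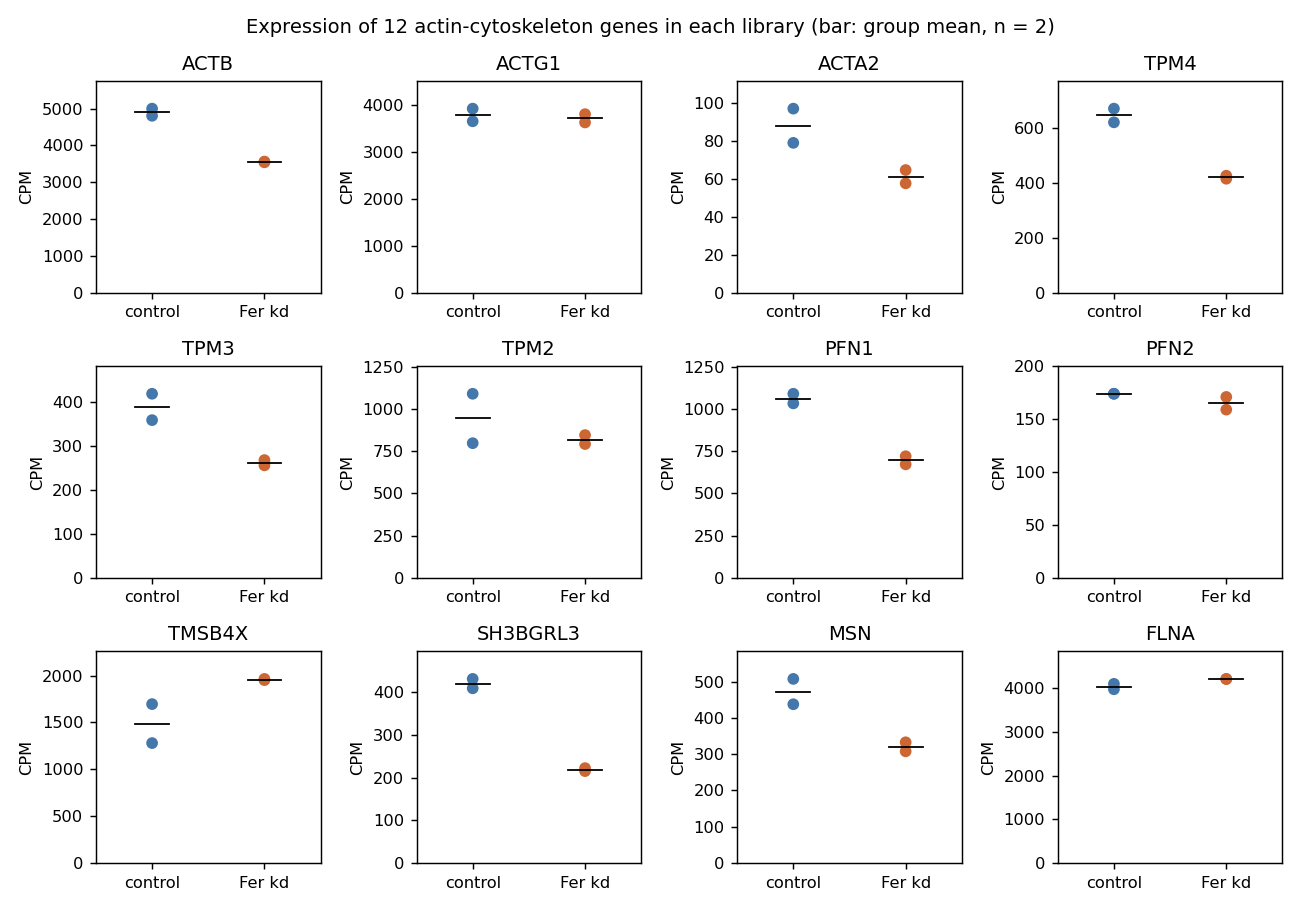
Expression in CPM (vertical axes, from 0) of 12 genes in the 2 control libraries and the 2 libraries labelled Fer knockdown (Fer kd), with a bar at each group mean. The libraries labelled Fer knockdown are lower without overlap for ACTB, ACTA2, TPM4, TPM3, PFN1, PFN2, SH3BGRL3 and MSN. They are higher without overlap for TMSB4X and FLNA, and the groups overlap for ACTG1 and TPM2.

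Smooth muscle markers other than SMTN were low. Of 6 markers, 5 passed the filter and 0 were called by edgeR, DESeq2 or limma-voom, and 1 was lower at an unadjusted p under 0.05 in edgeR. Their summed level was 138 and 139 CPM in control and 115 and 113 CPM in those labelled Fer knockdown. Most of it was SMTN, which encodes smoothelin, at 132 and 132 against 109 and 107 CPM. MYH11, the smooth muscle myosin heavy chain, had 29 to 44 counts in a library, and ACTG2 had 0 counts in 3 libraries and 3 in the fourth. DES was higher without overlap, at 0.489 and 0.231 against 0.749 and 0.640 CPM. LMOD1 (3.77 and 3.60 against 2.86 and 3.46 CPM) and SYNPO2 (0.831 and 1.01 against 0.396 and 0.828 CPM) were lower without overlap. The part of such cells in the ACTA2 values was not tested.

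The fold changes of all 4 tropomyosin genes were below 0, with a median of -0.41. EdgeR and limma-voom called 1 of them, TPM4, and DESeq2 called 2, TPM4 and TPM3. TPM2, the most abundant of the family per length, was at 1091 and 798 CPM in control and at 793 and 846 CPM in the other libraries. The wide gap between the controls left the groups overlapping, and the log2 fold change was -0.20 (edgeR adjusted p = 0.517). TPM3 was at 359 and 419 CPM in control and at 256 and 268 CPM in the others, without overlap, and is singled out here after its values were seen. EdgeR did not call TPM3 (adjusted p = 0.0639), nor did limma-voom (adjusted p = 0.0581). DESeq2 did (adjusted p = 0.00393), and so did edgeR with the replicate number as a block (adjusted p = 0.00645). TPM1 was at 184 and 193 against 159 and 158 CPM. As a share of the family's counts, TPM4 went from 27.6% and 32.3% in control to 25.6% and 25.1%.

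Non-muscle myosin II, the motor that pulls on actin filaments, showed 0 calls among its 7 genes by edgeR, DESeq2 or limma-voom, and 1 gene was lower at an unadjusted p under 0.05 in edgeR. That gene was MYLK, the myosin light chain kinase, which activates the motor. It was at 49.7 and 77.4 CPM in control and at 47.3 and 45.2 CPM in the other libraries, a log2 fold change of -0.46 ± 0.19 (SE, edgeR adjusted p = 0.251), with control replicate 2 as the high library. Leaving out control replicate 2 gave -0.13, and leaving out control replicate 1 gave -0.75. The heavy chain MYH9 was at 1486 and 1683 against 1330 and 1362 CPM, and MYH10 at 123 and 149 against 125 and 115 CPM. MYL6, the essential light chain, was at 729 and 518 CPM in control and at 728 and 721 CPM in the others (log2 fold change 0.22, edgeR adjusted p = 0.509), so that control replicate 2 was the low library. The regulatory light chain MYL12B was at 370 and 291 against 314 and 315 CPM, a log2 fold change of -0.07 that turned to 0.09 with library totals alone. Among the 3 regulatory light chain genes, MYL9 took 33.6% and 33.8% of the counts in control and 29.8% and 31.3% in the others.

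Crosslinkers and bundlers split between the alpha-actinins and the filamins. ACTN1, which encodes the alpha-actinin of stress fibres and carries a CArG box, was at 682 and 742 CPM in control and at 526 and 531 CPM in the other libraries. The groups did not overlap, with a log2 fold change of -0.43 ± 0.11 (SE, edgeR adjusted p = 0.0984). ACTN4 was at 1075 and 1109 against 827 and 867 CPM, and ACTN1 kept a like share of the counts of this pair, 38.8% and 40.1% in control and 38.9% and 38.0% in the others. FLNA, which encodes the filamin that ties filaments into networks, was at 4098 and 3974 CPM in control and at 4207 and 4211 CPM in the others, a log2 fold change of 0.06 with a 95% interval of -0.16 to 0.28 (edgeR adjusted p = 0.806). FLNC was at 320 and 341 against 342 and 342 CPM, and FSCN1, which encodes the bundling protein fascin, at 260 and 220 against 210 and 220 CPM. None of these 5 genes was called by edgeR, while 2 were lower at an unadjusted p under 0.05. DESeq2 called 1 of the 5 lower and limma-voom 0.

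The calponin family and caldesmon, which bind filaments and dampen myosin, had a median log2 fold change of 0.01 over 6 genes. None was called by edgeR, DESeq2 or limma-voom, and 0 had an unadjusted p under 0.05 in edgeR. CNN3, the most abundant of them by counts, was at 564 and 649 CPM in control and at 517 and 528 CPM in the others, a log2 fold change of -0.22 (edgeR adjusted p = 0.378). CNN1, a marker of differentiated smooth muscle, had only 21 and 16 counts in control and 27 and 25 in the others (log2 fold change 0.27 ± 0.44, SE, edgeR adjusted p = 0.805). TAGLN, another smooth muscle gene, stayed between 10.7 and 12.9 CPM in the 4 libraries, whereas TAGLN2 was at 362 and 266 against 288 and 296 CPM and CALD1 at 154 and 212 against 190 and 198 CPM.

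The monomer binders lay on both sides of 0. Next to the fall of PFN1, TMSB4X had the largest positive difference of the 57 genes. This gene for thymosin beta-4, which sequesters actin monomers, was at 1695 and 1279 CPM in control and at 1964 and 1951 CPM in those labelled Fer knockdown. The groups did not overlap, but the controls lay far from each other, and the log2 fold change of 0.40 ± 0.14 (SE) did not pass (edgeR adjusted p = 0.180). It ranged from 0.18 without control replicate 2 to 0.61 without control replicate 1. TMSB10, its close relative, was at 1549 and 1103 against 1256 and 1323 CPM, with a log2 fold change of -0.04 (edgeR adjusted p = 0.925) that turned to 0.13 with library totals alone. The table lists 6 pseudogenes of TMSB4X, with at most 3.32% of its counts in a library.

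Shares within families, which scaling cannot move, rest on the same counts and were picked after their values were seen. TMSB4X took 52.2% and 53.7% of the counts of these beta-thymosin genes in control and 61.0% and 59.6% in the other libraries. PFN1 took 86.3% and 85.6% of the profilin counts in control and 80.9% and 80.8% in the others. Both pairs of shares were without overlap. Shares without overlap also occurred in the actins, tropomyosins, cofilins and destrin, ezrin with radixin and moesin, the FHL pair and the regulatory light chains. In the alpha-actinins, filamins, calponins and non-muscle myosin heavy chains all shares overlapped. How often such shares differ over all genes was not computed.

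**Figure D4:**
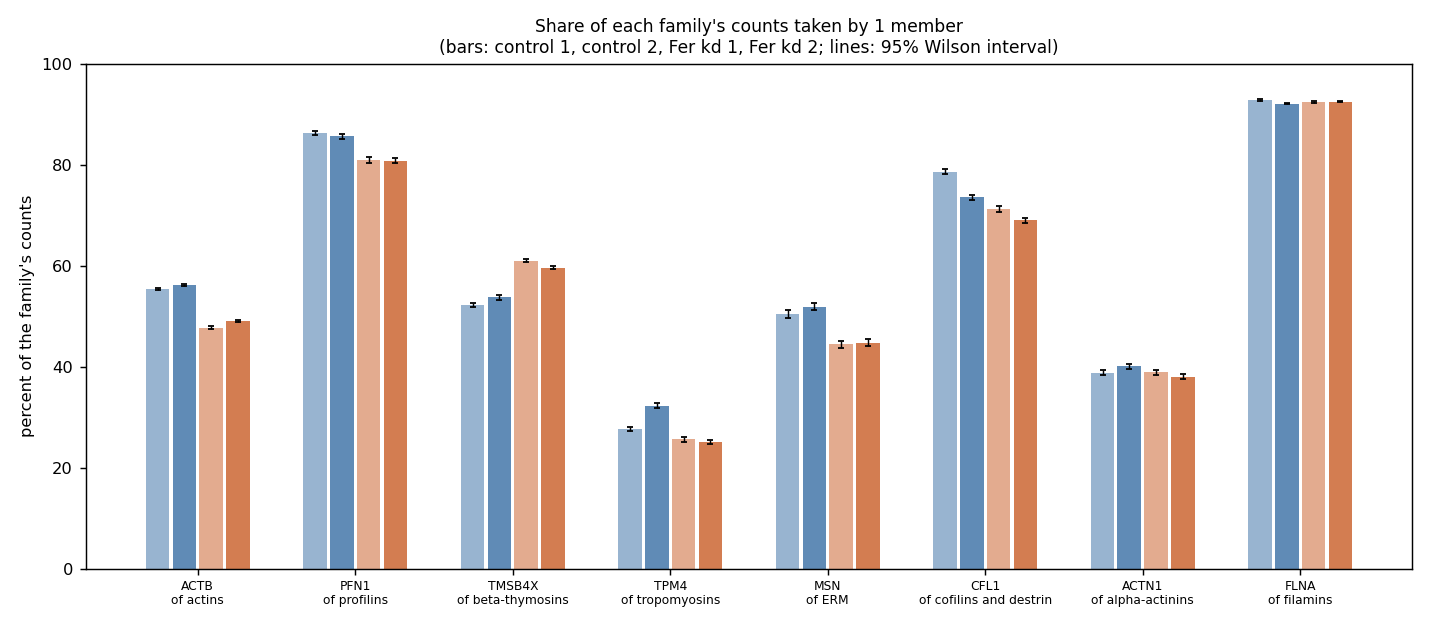
Percent of a family's counts (vertical axis, from 0 to 100) taken by 1 gene in control replicates 1 and 2 (blue) and in replicates 1 and 2 of the libraries labelled Fer knockdown (orange), with 95% Wilson intervals for counting error. ACTB, PFN1, MSN, CFL1 and TPM4 have lower shares and TMSB4X has higher shares in the orange bars, while those of ACTN1 and FLNA overlap.

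Of the severing and capping genes, none was called by edgeR, DESeq2 or limma-voom, and 2 of 7 were lower at an unadjusted p under 0.05 in edgeR. CAPZB, a subunit of the protein that caps barbed ends, was at 402 and 393 CPM in control and at 297 and 305 CPM in the others, a log2 fold change of -0.40 ± 0.11 (SE, edgeR adjusted p = 0.116). CFL1, which encodes cofilin 1, the main severing factor of non-muscle cells, was at 1229 and 974 against 817 and 790 CPM, or -0.45 ± 0.13 (SE, edgeR adjusted p = 0.124), with 19.0% of its bases under exons of MUS81 and SNX32. In both genes the groups did not overlap. CAPG, a capper of the gelsolin family, was at 153 and 126 CPM in control and at 142 and 151 CPM in the others (log2 fold change 0.07, edgeR adjusted p = 0.837). The related severing genes DSTN (249 and 256 against 248 and 269 CPM) and GSN (452 and 402 against 411 and 417 CPM) overlapped between the groups. Within cofilins and destrin, the share of CFL1 was 78.6% and 73.6% in control and 71.2% and 69.0% in the others.

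The subunits of the Arp2/3 complex, which work as an assembly, did not lie on the same side of 0. ARPC2, a core subunit, was at 525 and 513 CPM in control and at 376 and 367 CPM in those labelled Fer knockdown, without overlap (log2 fold change -0.48 ± 0.11, SE, edgeR adjusted p = 0.0759). ARPC4 was at 95.5 and 53.1 against 86.9 and 105 CPM, so the groups overlapped (log2 fold change 0.37 ± 0.23, SE, edgeR adjusted p = 0.453), and 28.3% of its bases lie under exons of ARPC4-TTLL3 and TADA3. The actin-related subunits were at 87.3 and 130 against 113 and 135 CPM for ACTR2 and at 113 and 131 against 108 and 116 CPM for ACTR3. ARPC3 was at 170 and 135 against 112 and 118 CPM, with 5 pseudogenes that held up to 8.74% of its counts, and ARPC5 was at 106 and 112 against 116 and 131 CPM. Exons of AC004922.1 overlap ARPC1A and ARPC1B, at 58.4% and 32.4% of their bases with other partners included, so their values are uncertain. With the coronin CORO1C, a branch-removing factor, the group of 9 genes had 0 calls by edgeR or limma-voom, 2 genes lower at an unadjusted p under 0.05, and 1 called lower by DESeq2.

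Ezrin, radixin and moesin link filaments to the plasma membrane. MSN, which encodes moesin, was at 438 and 508 CPM in control and at 308 and 333 CPM in the others, a log2 fold change of -0.56 ± 0.12 (SE, edgeR adjusted p = 0.0671). EZR was at 382 and 394 against 327 and 341 CPM (log2 fold change -0.21, edgeR adjusted p = 0.350), and in both genes the groups were apart. RDX was at 49.2 and 76.9 against 59.3 and 70.5 CPM, with overlap (log2 fold change 0.04, edgeR adjusted p = 0.941). MSN took 50.4% and 51.9% of the counts of these 3 genes in control and 44.4% and 44.7% in the others. Of the 3, edgeR and limma-voom called 0, DESeq2 called 1 lower, and 1 was lower at an unadjusted p under 0.05 in edgeR.

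The Ena/VASP proteins, which promote the elongation of filaments, and the adaptor LASP1 had 0 calls by edgeR, DESeq2 or limma-voom, and 0 had an unadjusted p under 0.05 in edgeR. EVL was at 40.3 and 36.8 CPM in control and at 48.4 and 46.2 CPM in the others, without overlap (log2 fold change 0.30 ± 0.14, SE, edgeR adjusted p = 0.290). VASP was at 110 and 96.6 against 94.5 and 101 CPM, and LASP1 at 547 and 537 against 524 and 535 CPM. Their log2 fold changes of -0.07 and -0.03 turned to 0.09 and 0.13 with library totals alone. ENAH was at 93.7 and 140 against 121 and 138 CPM.

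The mRNAs of the transcription factors themselves did not differ beyond their spread. SRF was at 78.2 and 84.2 CPM in control and at 79.0 and 89.3 CPM in the others, and MRTFA at 68.1 and 68.7 against 68.4 and 73.2 CPM. Both overlapped between the groups. Of the FHL cofactors, FHL1 was at 79.6 and 97.7 CPM in control and at 57.6 and 68.4 CPM in the others (log2 fold change -0.49 ± 0.15, SE, edgeR adjusted p = 0.141), whereas FHL2 was at 337 and 268 against 355 and 354 CPM (0.23 ± 0.13, SE, edgeR adjusted p = 0.406). For FHL2, leaving out control replicate 2 gave 0.05 and leaving out control replicate 1 gave 0.40. FHL1 took 19.1% and 26.7% of the counts of this pair in control and 14.0% and 16.2% in the others. Both carry a CArG box, though not before every start. None of these 4 genes was called by edgeR, DESeq2 or limma-voom, and 1 was lower at an unadjusted p under 0.05 in edgeR.

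Other genes regulated by SRF and MRTF, from a list of 29 names, gave 23 tested genes. Of these, 1 fell (4.35%) and 0 rose, while 0.646% of all tested genes were called in either direction. The gene that fell was FOSL1, a subunit of the AP-1 transcription factor. It was at 206 and 233 CPM in control and 139 and 126 CPM in the others (log2 fold change -0.73 ± 0.13, SE, edgeR adjusted p = 0.0379). With either library labelled Fer knockdown left out, its call was lost (edgeR adjusted p = 0.247 without replicate 1 and 0.655 without replicate 2). TGFB1I1, a focal adhesion protein, was at 144 and 122 against 100 and 90.5 CPM (-0.48, edgeR adjusted p = 0.117). ZYX, which encodes zyxin, was at 413 and 361 against 296 and 282 CPM (-0.42, edgeR adjusted p = 0.121). The median log2 fold change of the list was -0.10. Of its 20 genes with a promoter window, 8 held a CArG box (40.0%), against 1.44% of all genes. The list was drawn up as SRF and MRTF targets, so this share is only a description. DESeq2 called 2 of the genes lower and limma-voom 1. At an unadjusted p under 0.05 in edgeR, 6 of the 23 were lower and 3 higher. Of all tested genes, 8.77% were lower and 8.95% higher at that level.

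A further 2 lists of actin regulators had 0 calls by edgeR, DESeq2 or limma-voom. Of 18 tested activators of Arp2/3, with a median of -0.09, 4 were lower and 2 higher at an unadjusted p under 0.05 in edgeR, led by the adaptor NCK2 at 32.8 and 32.7 against 23.6 and 23.8 CPM (log2 fold change -0.46, edgeR adjusted p = 0.136). WASF1 (-0.53, adjusted p = 0.178) and ARPC5L (0.43, adjusted p = 0.193) came next. ARPC5L was listed with the activators but encodes a subunit of the complex itself. Of 30 other tested actin-binding proteins, with a median of -0.07, 0 were lower and 3 higher at that level, which 17.7% of all tested genes passed, so the named genes are only those with the smallest p of each list. In the second list they were the monomer binder TWF2 at 45.1 and 35.1 against 57.9 and 58.4 CPM (0.54, adjusted p = 0.119, 25.6% exon overlap), AIF1L (0.54, adjusted p = 0.247) and MYL5 (0.44, adjusted p = 0.273).

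By level, 5 mRNAs led the 57 genes in control whichever gene length was used. As CPM per kilobase of transcript, TMSB10 stood at 2674 ± 637, ACTB at 2551 ± 71.4, ACTG1 at 1681 ± 84.6, TMSB4X at 874 ± 173 and PFN1 at 822 ± 31.2 (SD, n = 2 each). Per kilobase of transcript, TMSB10 and ACTB did not differ beyond their spread, nor did TMSB4X and PFN1. In the libraries labelled Fer knockdown, the same quantity was 2599 ± 95.2 for TMSB10, 1848 ± 7.47 for ACTB, 1649 ± 55.5 for ACTG1, 1150 ± 5.31 for TMSB4X and 539 ± 26.2 for PFN1. With the length column of the table, ACTG1 came before ACTB in control. On that scale TMSB10 (2877 ± 685) lay well above ACTB (1112 ± 31.1) in control. TMSB4X was at 873 ± 173 and PFN1 at 664 ± 25.2 (SD, n = 2 each). Together the 57 genes took 3.17% and 3.01% of all counts in control and 3.08% and 3.11% in the others. Without the counts of the mitochondrial chromosome these shares were 3.81% and 3.73% against 3.41% and 3.43%.

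**Figure D5:**
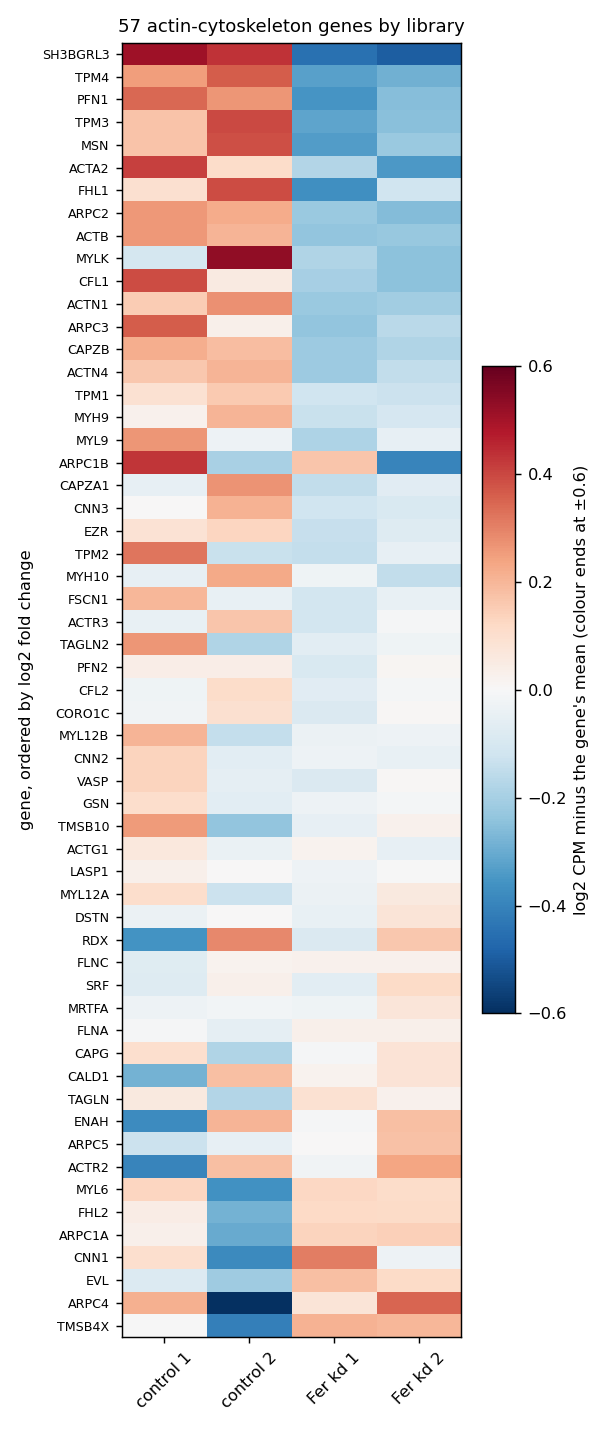
Log2 CPM of each of the 57 genes (rows, ordered by log2 fold change) in the 4 libraries (columns), minus the mean of the gene over the libraries, with colours ending at ±0.6. The upper rows, from SH3BGRL3 on, are higher in both controls, and in many rows the 2 control libraries differ from each other more than the other 2 libraries do.

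The controls differed from each other by a median of 0.217 on the log2 scale over the 57 genes, regardless of sign, and the libraries labelled Fer knockdown by 0.0672. A difference of more than 0.3 was found for 19 genes between the controls and for 2 genes between the other libraries. Control replicate 1 was the higher for short mRNAs such as TMSB10 (by 0.49), MYL6 (by 0.49) and TPM2 (by 0.45), and the lower for RDX (-0.65), MYLK (-0.64) and ENAH (-0.58), whose transcripts are long. Not all genes followed length. The largest positive gap was that of ARPC4 (0.85, 2582 bases). The short CAPZB (0.04, 858 bases) and TPM1 (-0.07, 1049 bases) and the long FLNA (0.04, 8516 bases) differed little between the controls. Across the 57 genes this difference had a Spearman rank correlation of -0.69 with transcript length, against -0.39 across 15318 tested genes. For the libraries labelled Fer knockdown the values were -0.26 and 0.01. Genes are not independent replicates, and each correlation describes a single pair of libraries. SH3BGRL3, PFN1 and TPM4 differed by 0.08, 0.08 and -0.11 between the controls. With trends on transcript length and GC content removed, an alternative chosen after seeing the data, they fell by 1.01, 0.69 and 0.61 on the log2 scale.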

How the data were processed

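Polyadenylated RNA of 4 BEAS-2B libraries, 2 per group, was compared. The table the authors deposited holds raw read counts, 1 column per library, beside gene names and a length. The submitters' processing notes name DESeq2, featureCounts and HISAT2 as tools and mm10 and hg19 as builds, with neither version nor role. Whether counting used strand, and on which annotation, is not given in the sources used here. For replicate 1 of Fer knockdown the column has a shortened name and was matched as the only such library with that number. Of 39635 rows, 1 held no values and was left out. Depth ran from 21422976 to 25169713 counts.

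Counts were tested with edgeR 4.0.16 (R 4.3.3) by the quasi-likelihood test, two-sided, with TMM scaling and the default filterByExpr, which left 15336 genes. The p-values were adjusted over all of them by the Benjamini-Hochberg method at 0.05. The code was tested on simulated data. The labels do not say that replicates came from separate cultures, and p-values therefore reflect just the spread among these libraries, which may be technical. Samples of the same number were not shown to share a culture.

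The genes and lists were chosen with earlier results of these data known. Named with fold changes were FER, each of the 57 genes past the threshold, in each role group the genes with the smallest p, the highest level per length, the largest rise and the largest fall, and in each further list the 3 with the smallest p. Other genes are given by level. A further list is not reported here. Family shares were picked after their values were seen. Exon overlaps on either strand, transcript lengths and chromosomes came from GENCODE release 29 (99.95% of tested genes matched), and promoter sequences from RefSeq on GRCh38.p14, a build other than hg19, so they were joined by symbol.

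Alternatives were a replicate block, 3 other scalings, DESeq2 1.42.0, limma-voom (limma 3.58.1), 2 other filters, leaving out the mitochondrial chromosome, removing a trend on gene length or on transcript length and GC content, and leaving out each library. A group left with 1 library was assumed to vary like the other group.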

Additional observations from a re-analysis of the deposited data

How the results depend on the processing

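Counts of calls differed widely between the 15 alternatives, while of the 39 genes named with fold changes 28 kept their sign under all of them. The count of all genes called, 99 as reported, was 990 with the replicate block, 192 with upper-quartile factors, 443 with library totals alone, 580 by DESeq2, 178 by limma-voom, 993 without a filter, 687 with the length trend removed and 1460 with the transcript length and GC trends removed, an alternative chosen after seeing the data. Of the 57 genes, 9 were lower past the threshold with the replicate block, 9 by DESeq2, 1 with library totals alone, 1 with the mitochondrial chromosome left out, 13 without a filter (and 1 higher), 8 with the length trend removed and 14 with the length and GC trends removed (and 1 higher). With DESeq2 size factors, upper-quartile factors, limma-voom and a filter of 5 CPM in 2 libraries, 3 were called. Of all tested genes, 6.46% were called with the block, 3.78% by DESeq2, 2.89% with library totals alone and 0.498% without the mitochondrial chromosome. It was 4.14% without a filter, 4.48% with the length trend removed and 9.52% with both trends removed. In the settings with 3 calls it was 0.861%, 1.25%, 1.16% and 1.06%, in that order. Same-numbered libraries deviated together with a correlation of only 0.0373, so the block pairs by number alone. ACTB passed with the block (adjusted p = 0.0468). The median of the 57 genes was 0.09 with library totals alone.

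In the list of other SRF and MRTF targets, 4 genes passed with the block, 2 with library totals alone, 2 by DESeq2, 5 without a filter, 2 with the length trend removed and 6 with the length and GC trends removed. Among Arp2/3 activators it was 1, 1, 1 and 4 with the block, no filter, the length trend removed and both trends removed. Among other actin-binding proteins it was 1 under each of these 4 and under library totals alone. As reported, 23, 18 and 30 genes of these lists were tested, and the shares of all tested genes called per setting are given above.

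With each library left out in turn, counts ran from 56 to 4734 for all genes, 0 to 24 for the 57 genes called lower, 0 to 8 for those called higher, 0 to 13 for other SRF and MRTF targets, 0 to 10 for Arp2/3 activators and 0 to 20 for other actin-binding proteins. The median of the 57 genes ran from -0.13 to -0.07. Log2 fold changes that crossed 0 ran from -0.16 to 0.19 for FER, -0.10 to 0.02 for ACTG1, -0.44 to 0.03 for TPM2, -0.26 to 0.11 for MYL12B, -0.03 to 0.48 for MYL6, -0.29 to 0.22 for TMSB10, -0.09 to 0.21 for CAPG, -0.02 to 0.84 for ARPC4, -0.25 to 0.38 for RDX and -0.19 to 0.01 for VASP. Others kept their sign but moved by over 1.5 times without a control library: MYLK (-0.75 to -0.13), FHL2 (0.05 to 0.40), TMSB4X (0.18 to 0.61), CFL1 (-0.64 to -0.28), CNN1 (0.02 to 0.52), CNN3 (-0.32 to -0.13), FLNA (0.02 to 0.08), LASP1 (-0.07 to -0.02), ARPC5L (0.22 to 0.63), MYL5 (0.20 to 0.68), TWF2 (0.34 to 0.72) and WASF1 (-0.78 to -0.26). With library totals alone, the signs of ACTG1 (0.14), MYL12B (0.09), TMSB10 (0.13), LASP1 (0.13) and VASP (0.09) turned. The causes were not tested, and 2 libraries per group limit all calls.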
